A study of Mus musculus with 12 samples.

Results

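The genes described here are 7 genes of de novo lipogenesis in mouse liver: Thrsp, Acly, Acaca, Acacb, Fasn, Scd1 and Elovl6. They were selected by name, with the response of wild-type livers to dextran sodium sulfate (DSS) already known. Thrsp was chosen for its fall there. The deposited table has 51609 gene rows, all 7 genes have a row, and all 7 were among the 17652 genes that passed the filter on low counts. Liver RNA was sequenced from 12 C57BL/6 mice in 4 groups of 3: wild-type and Rela and Stat3 knockout mice, each left on water or given 2% DSS in drinking water for 6 days, a treatment that induces acute colitis. The mice were 5 to 7 weeks old and of either sex. In the knockout mice a Cre recombinase driven by the albumin promoter deletes Rela and Stat3, the transcription factors of the NF-κB and the IL-6 family cytokine pathways, in hepatocytes, so that the other cells of the liver keep both genes. The wild-type mice were Cre-negative littermates carrying the same floxed alleles. The question the design asks of these genes is how far hepatic lipogenesis transcripts move during colitis, and whether they move alike when hepatocytes are meant to lack both factors.

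De novo lipogenesis turns surplus carbohydrate into fatty acids. Acly cleaves cytosolic citrate to acetyl-CoA, Acaca and Acacb carboxylate it to malonyl-CoA, Fasn joins these units into palmitate, and Elovl6 and Scd1 lengthen and desaturate the product. Thrsp (Spot 14) is a small acidic protein without a known catalytic site that promotes lipogenesis in liver, mammary gland and fat, and that was first found as a transcript induced by thyroid hormone. In liver the whole set is raised by feeding through SREBP-1c and ChREBP and lowered by fasting.

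Sequences are shown for Thrsp and Elovl6, because both were lower after DSS in the labelled knockout livers and because their RefSeq promoter window begins exactly at the 5′ end of the gene. Each run is the 250 bases upstream of the start, 5′ to 3′ on the strand of the gene, from RefSeq on GRCm38.p6, at chr7:97417551-97417800 (minus strand) and chr3:129532136-129532385 (plus strand). Capitals mark a match to any of the motifs searched.
Thrsp: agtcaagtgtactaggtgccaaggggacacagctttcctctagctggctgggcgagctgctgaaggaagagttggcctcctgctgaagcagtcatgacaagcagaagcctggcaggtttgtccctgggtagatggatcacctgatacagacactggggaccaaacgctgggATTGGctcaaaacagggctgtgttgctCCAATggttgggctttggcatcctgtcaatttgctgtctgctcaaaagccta
Elovl6: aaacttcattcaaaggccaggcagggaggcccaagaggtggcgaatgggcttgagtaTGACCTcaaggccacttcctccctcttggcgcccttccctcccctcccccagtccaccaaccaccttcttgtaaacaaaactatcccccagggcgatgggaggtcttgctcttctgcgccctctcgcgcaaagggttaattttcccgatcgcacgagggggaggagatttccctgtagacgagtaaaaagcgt

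RefSeq windows of 300 bases, 250 before the start and 50 after it, were found for 6 of the 7 genes, all but Scd1. The windows of Acaca, Acacb and Fasn begin 65.8 kb, 19.2 kb and 0.6 kb inside the span that RefSeq gives the gene, so they are not at its outermost start. Motifs were searched on both strands. The CCAAT box (CCAAT) was found in 4 of the 6 windows and in 37.4% of all 32851 windows of this length. In Thrsp it stood 79 bases before the start, on the opposite strand, and again 52 bases before it. The thyroid receptor half-site (AGGTCA) was found in Acly, Acacb and Elovl6, and in 16.3% of all windows. In Elovl6 it stood 193 bases before the start. The TATA box (TATAAA) was in Acacb alone (13.6% of all windows), and the GC box (GGGCGG) in Acly alone (35.7%). None of the 6 windows held an E-box (CACGTG, 7.15% of all windows), the sterol regulatory element TCACNCCAC (1.24%), a STAT site with a 3-base spacer (TTCNNNGAA, 8.3%) or a 4-base spacer (6.95%). These are matches of letters in a short window.

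The libraries held between 65879529 and 82850098 estimated counts. Values are given as CPM, counts scaled to a common library size after TMM adjustment, and livers are numbered as in the labels. Rela was not lower in the libraries labelled knockout, with 39.5 to 62.3 CPM against 39.8 to 55.5 CPM in wild type, so these groups are called labelled knockout. Stat3 ran from 43.0 to 74.8 CPM in them and from 45.7 to 329.5 CPM in wild type. Counts of whole genes do not show deleted exons, and unrecombined cells of the liver also contribute. All 3 DSS-treated labelled knockout livers had Xist at 903 to 1283 CPM and the Y-linked Ddx3y at no more than 0.084 CPM, whereas the 3 untreated ones had Xist at no more than 29.0 CPM and Ddx3y at 90.1 to 110.1 CPM. In the labelled knockout, DSS and the sex of the mice therefore cannot be told apart. Among the wild-type livers, untreated liver 3 had Xist at 1143 CPM and Ddx3y at 14.3 CPM, and DSS liver 2 had the lowest scaling factor, 0.758. Hepatocyte markers (6 of 7 listed have a row) summed to between 100000 and 185000 CPM in each of the 12 livers, and adipocyte markers (7 of 7) to no more than 0.69 CPM. Lep, Retn and Ucp1 were at 0 in every library.

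Thrsp (ENSMUSG00000035686, chr7:104561448-104566240 on the minus strand of mm9) had the widest range of the 7 genes as a ratio of its highest to its lowest liver. Its CPM was 506, 411 and 218 in the untreated wild-type livers and 23.0, 31.4 and 32.6 after DSS. Labelled knockout livers measured 798, 743 and 474 untreated and 47.0, 40.0 and 62.1 after DSS. The highest DSS-treated liver of either genotype lay below the lowest untreated one by a wide gap. The fitted log2 fold change was -3.71 (SE 0.33) in wild type, 13.1-fold lower, and -3.76 (SE 0.33) in the labelled knockout, 13.5-fold lower. In the labelled knockout the fall passed the test (edgeR adjusted p = 0.00015, lower in 3 of 3 livers). These mice are not those whose response chose Thrsp, but results of all 4 groups were known when the genes were put together, so the labelled knockout tests of the 7 genes are not independent evidence. With Xist as a covariate the labelled knockout value was -2.68 (edgeR adjusted p = 0.0683). Each estimate with this covariate rests on wild-type untreated liver 3, the only liver with high Xist whose group also holds livers without it. That liver also had Ddx3y at 14.3 CPM, whereas the DSS-treated labelled knockout livers with high Xist had no more than 0.084 CPM.

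**Figure D1:**
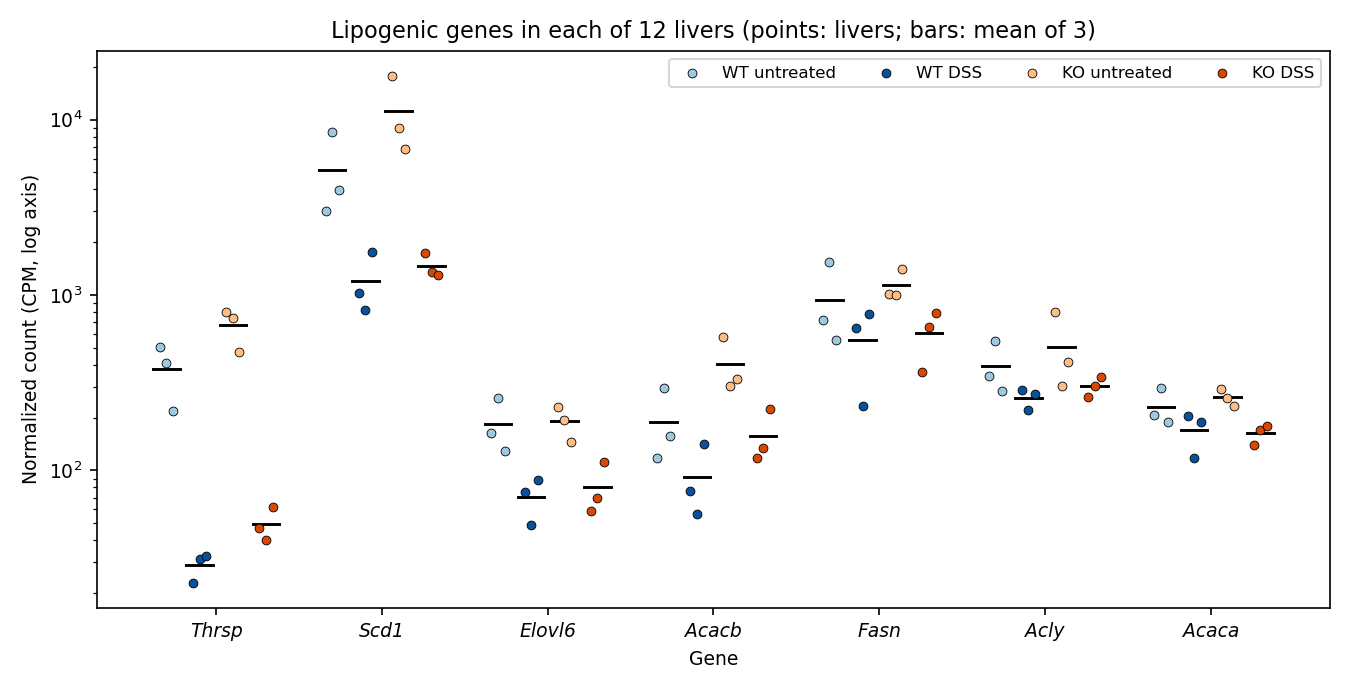
Normalized counts (CPM, log axis) of the 7 genes in each of the 12 livers; points are livers and bars are means of 3, with blue for wild type and orange for the labelled knockout, pale for untreated and dark for DSS. Thrsp drops from 218 to 798 CPM untreated to 23.0 to 62.1 CPM after DSS, whereas the groups of Acly overlap in both genotypes.

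Acly, ATP citrate lyase (ENSMUSG00000020917, chr11:100337667-100389314, minus strand, mm9), measured 347, 548 and 285 CPM in untreated wild-type livers and 286, 221 and 274 after DSS. The labelled knockout livers were at 798, 301 and 414 untreated and 261, 303 and 342 after DSS. The groups overlapped in both genotypes. Its log2 fold change with DSS was -0.59 (SE 0.32) in wild type and -0.74 (SE 0.32) in the labelled knockout, where it did not pass the test (edgeR adjusted p = 0.182). The latter value rests largely on untreated liver 1, the highest at 798 CPM: without it the log2 fold change was -0.24 (SE 0.27), and with the Xist covariate it was -0.09 (SE 0.56).

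The acetyl-CoA carboxylases are encoded by Acaca, the cytosolic form that feeds fatty acid synthesis (ENSMUSG00000020532, chr11:83943174-84215153, plus strand, mm9), and Acacb, the mitochondrial form whose malonyl-CoA restrains fatty acid oxidation (ENSMUSG00000042010, chr5:114596544-114700770, plus strand). Acaca measured 208, 295 and 189 CPM in untreated and 206, 118 and 189.6 CPM in DSS-treated wild-type livers, and 290.3, 261 and 232 CPM against 140.4, 169.5 and 179 CPM in the labelled knockout. Acacb measured 117, 294 and 157 CPM against 76.5, 56.3 and 142 CPM in wild type, and 579, 305 and 332 CPM against 117, 134 and 223 CPM in the labelled knockout. For both genes the wild-type groups overlapped and the labelled knockout groups did not. The log2 fold change of Acaca was -0.43 (SE 0.22) in wild type and -0.68 (SE 0.22) in the labelled knockout (edgeR adjusted p = 0.0837). That of Acacb was -1.05 (SE 0.43) and -1.36 (SE 0.43; edgeR adjusted p = 0.0828). Neither passed, although DESeq2 called both (adjusted p = 0.0198 and 0.00634), as did edgeR fitted on the labelled knockout livers alone (0.0222 and 0.0255). With the Xist covariate Acaca was at -0.27 (SE 0.39) and Acacb at -0.97 (SE 0.78). GENCODE vM1 places the minus-strand gene Gm17722 over exons of Acaca, and reads of the overlap may be shared between them.

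Fasn, fatty acid synthase (ENSMUSG00000025153, chr11:120667254-120685492, minus strand, mm9), was variable between livers of a group. In wild type it measured 723, 1535 and 556 CPM untreated and 645, 233 and 782 CPM after DSS, and these ranges overlapped. The labelled knockout livers did not overlap, at 1008, 1002 and 1415 CPM untreated and 366, 655 and 791 CPM after DSS. The log2 fold change was -0.76 (SE 0.47) in wild type and -0.92 (SE 0.47) in the labelled knockout, where the edgeR adjusted p was 0.255. With the Xist covariate the labelled knockout value turned to 0.10 (SE 0.79).

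Elovl6, the elongase that carries palmitate to stearate (ENSMUSG00000041220, chr3:129235304-129341413, plus strand, mm9), measured 164, 260 and 130 CPM in untreated wild-type livers and 74.9, 48.8 and 88.8 CPM after DSS. Labelled knockout values were 231, 195 and 146 CPM untreated and 58.8, 69.97 and 112 CPM after DSS. The groups did not overlap in either genotype. The log2 fold change was -1.38 (SE 0.32), 2.61-fold lower, in wild type and -1.25 (SE 0.32), 2.38-fold lower, in the labelled knockout (edgeR adjusted p = 0.0341). This call is close to the threshold: 5 of the 6 fits that left out a labelled knockout liver lost it, with log2 fold changes between -1.08 and -1.41 and adjusted p between 0.0515 and 0.137. With the Xist covariate Elovl6 was at -0.54 (edgeR adjusted p = 0.755).

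Scd1, the stearoyl-CoA desaturase that makes oleate and palmitoleate (ENSMUSG00000037071, chr19:44468941-44482199, minus strand, mm9), was the most abundant of the 7 per length in every group. It measured 3029, 8536 and 3984 CPM in untreated wild-type livers and 1032, 825 and 1768 CPM after DSS, without overlap. The labelled knockout livers measured 17700, 8896 and 6809 CPM untreated and 1730, 1351 and 1297 CPM after DSS, again without overlap. Its log2 fold change was -2.10 (SE 0.45), 4.29-fold lower, in wild type and -2.93 (SE 0.47), 7.63-fold lower, in the labelled knockout (edgeR adjusted p = 0.00499). With the Xist covariate the latter was -2.39 (edgeR adjusted p = 0.321). Transcripts of Scd1 share 5.25%, 5.92% and 3.46% of their 31-base words with Scd2, Scd3 and Scd4, so a small part of its reads could be assigned to a copy. Scd2 and Scd3 were not analysed here. Scd4 was measured at a low level, with 397, 202 and 139 counts in untreated and 0, 43 and 44 counts in DSS-treated labelled knockout livers (edgeR adjusted p = 0.281), and with 0, 214 and 34 counts against 0, 0 and 0 in wild type.

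Per kilobase of exon (the union of exons in GENCODE vM1), Scd1 came first in untreated wild-type liver, at 1072 ± 609 CPM per kb (SD, n = 3), and Thrsp second, at 296 ± 115. Fasn (95.2 ± 53.2) and Acly (74.5 ± 26.0) came next and overlapped each other, as did Elovl6 (31 ± 11.3), Acaca (22.6 ± 5.53) and Acacb (19.7 ± 9.62). After DSS the order in wild type was Scd1 (250 ± 103), Fasn (56.2 ± 29.0), Acly (49.3 ± 6.64), Thrsp (22.7 ± 4.08), Acaca (16.8 ± 4.58), Elovl6 (11.9 ± 3.41) and Acacb (9.49 ± 4.62). The labelled knockout had Scd1 at 2303 ± 1195 and Thrsp at 526 ± 136 untreated, and Scd1 at 302 ± 48.8, Fasn at 61.3 ± 22, Acly at 57.2 ± 7.67 and Thrsp at 38.9 ± 8.84 after DSS. In both genotypes Thrsp moved from the second to the fourth place, in wild type into the range of Acaca and, in its highest value of 25.5, of the lowest Fasn value of 23.6. The 7 genes took 0.52% to 1.22% of all counts in untreated and 0.116% to 0.331% in DSS-treated wild-type livers, and 1.1% to 2.1% against 0.277% to 0.301% in the labelled knockout. Scd1 alone supplied 43.1% to 82.7% of these counts.

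Considered as a group, all 7 genes had a negative log2 fold change with DSS in both genotypes. In wild type the median was -1.05, against 0.02 over all tested genes, and 1 of the 7, Thrsp, was below an edgeR adjusted p of 0.05, where 0.232% of all tested genes were called lower. The groups did not overlap for 3 of the 7 (Thrsp, Scd1 and Elovl6), where 9.21% of all tested genes were lower without overlap. Nothing is read from these 2 counts or from the wild-type median, because the genes were chosen with this contrast known. The wild-type values of 4 enzymes depended on untreated liver 2, which was highest in all 6: without it the log2 fold change was -0.28 for Acly, -0.22 for Acaca, -0.59 for Acacb and -0.21 for Fasn, against -3.65 for Thrsp. Acaca and Fasn depended on DSS liver 2 as well, and were at -0.23 and -0.40 without it. The labelled knockout median was -1.25, against -0.01 over all tested genes. Of the 7 genes, 3 (Thrsp, Scd1 and Elovl6) were called lower and 0 higher by edgeR, where 2.46% of all tested genes were called lower and 4.57% higher. Groups were lower without overlap for 6 of the 7, all but Acly, where 14% of all tested genes were. With 3 livers against 3 the two-sided exact permutation test gave p = 0.1, the smallest it can give, for each of these 6, and p = 0.3 for Acly. Under the Xist covariate 0 of the 7 were called and the median was -0.54, but that fit called only 4 of all 17652 genes, and the median standard error of the 7 genes was 0.564 in place of 0.329.

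**Figure D2:**
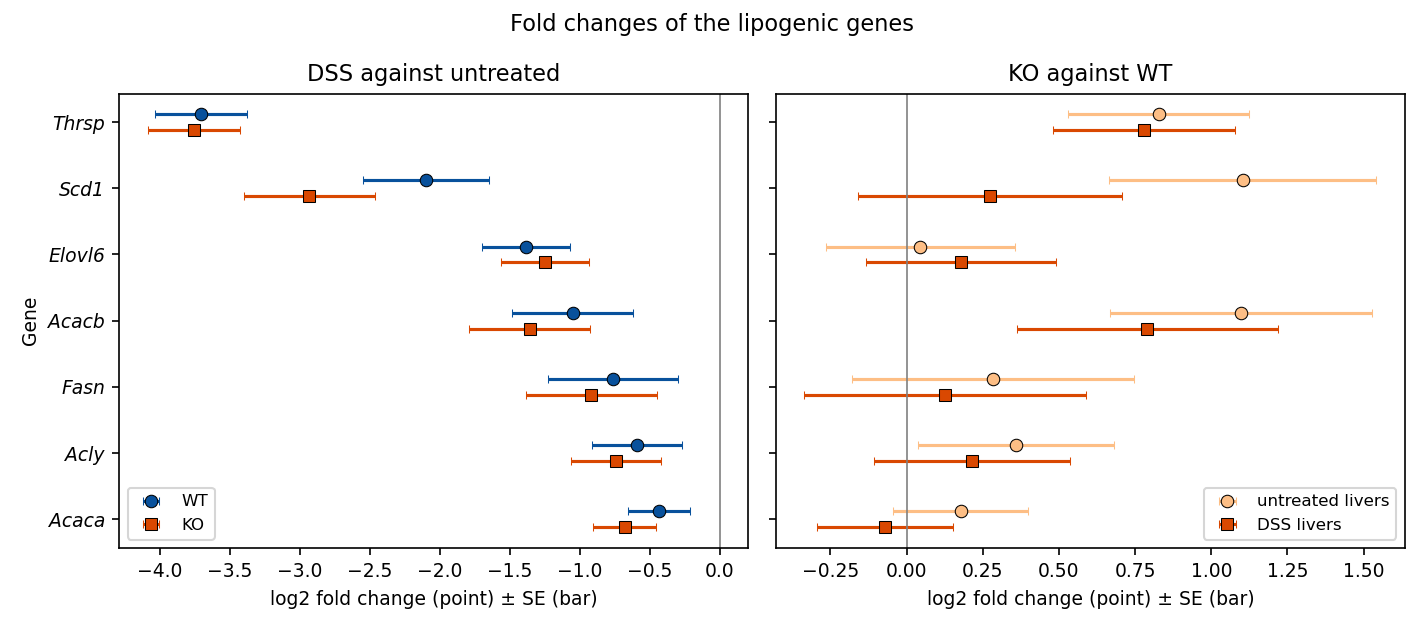
Fitted log2 fold change (points) with its standard error (bars) for each of the 7 genes; the left panel gives DSS against untreated livers in wild type (blue circles) and labelled knockout (orange squares), the right panel labelled knockout against wild type in untreated (pale circles) and DSS-treated livers (dark squares). All 14 values on the left lie below 0, from -3.76 to -0.43, and 13 of the 14 on the right lie above 0, from -0.07 to 1.10.

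The size of the response differed widely within the set. Thrsp, whose fall with DSS in wild type chose it, and Scd1 had the most negative values and Acaca the least negative in both genotypes. Among all 17652 tested genes ordered from the most negative fold change, Thrsp stood at place 78 in wild type and 91 in the labelled knockout, Scd1 at 203 and 143, and Acaca at 2746 and 2475. The fitted difference between the responses (labelled knockout minus wild type) was -0.05 (SE 0.42) for Thrsp, -0.83 (SE 0.61) for Scd1, 0.13 (SE 0.44) for Elovl6 and between -0.31 and -0.15 for the other 4 genes, with standard errors of 0.31 to 0.65. These are given without a test, since they use the wild-type response. Scd1 kept its sign in all 19 alternatives, Acaca in 18, Acacb and Acly in 16, Elovl6 in 15, Fasn in 13 and Thrsp in 11. With the Xist covariate the difference was 1.30 (SE 0.58) for Thrsp, 1.13 (SE 1.07) for Fasn, 1.04 (SE 0.72) for Elovl6, 0.69 (SE 0.77) for Acly, 0.29 (SE 0.53) for Acaca, 0.20 (SE 1.08) for Acacb and -0.14 (SE 1.09) for Scd1. By edgeR 0.408% of all tested genes differed between the responses.

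**Figure D3:**
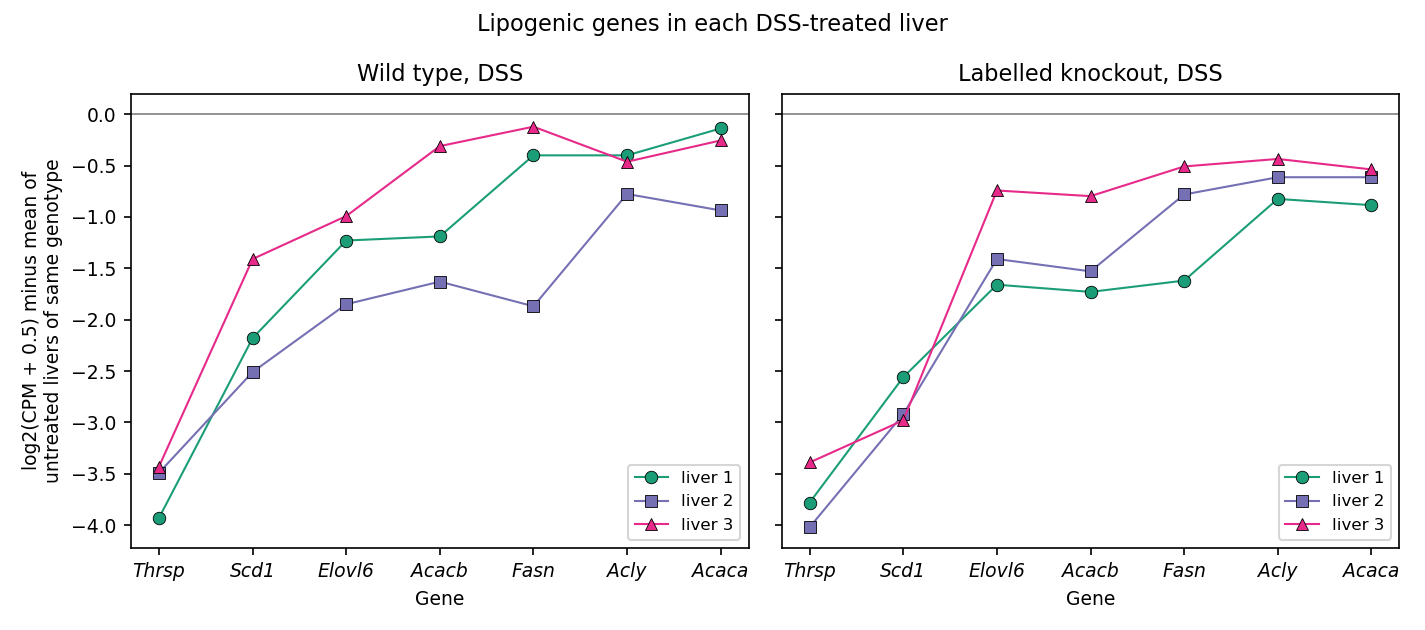
Each line is 1 DSS-treated liver and each point the log2(CPM + 0.5) of a gene minus the mean of the 3 untreated livers of the same genotype. Thrsp lies between -4.02 and -3.39 in all 6 livers, Fasn runs from -1.87 to -0.12, and Acly, the narrowest, from -0.83 to -0.40.

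Relative to the untreated livers of the same genotype, the 6 DSS-treated livers had Thrsp between -4.02 and -3.39 on the log2 scale, and the median of the 6 enzymes between -1.74 and -0.39. Wild-type DSS liver 2 had the lowest value of its group in all 6 enzymes but not in Thrsp, where liver 1 was lowest. Labelled knockout DSS liver 1 was lowest of its group in 5 enzymes, all but Scd1, and not in Thrsp, where liver 2 was lowest. Of the other extremes, wild-type untreated liver 3 was lowest in Thrsp and 4 enzymes, wild-type DSS liver 3 highest in Thrsp and 4 enzymes, and labelled knockout untreated liver 1 and DSS liver 3 highest in Thrsp and 5 enzymes each. In untreated wild type the highest liver was 1 for Thrsp and 2 for all 6 enzymes. Labelled knockout untreated liver 3 was lowest in Thrsp, Acaca, Scd1 and Elovl6, and liver 2 in Acly, Acacb and Fasn. Across the 12 livers, deviations from the group means were correlated between enzymes with a median Pearson r of 0.706 (0.407 to 0.883, 15 pairs), the closest pair being Acaca and Elovl6. Deviations of Thrsp were correlated with those of an enzyme with a median of 0.266 (0.111 to 0.553, 6 pairs), a range that overlaps that of the enzyme pairs. These correlations are descriptions over 12 livers that share a library, depth and scaling factor for every gene.

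Between genotypes, 0 of the 6 enzymes passed the edgeR test in untreated or in DSS-treated livers. Among all tested genes 0.0623% were called in untreated and 0.334% in DSS-treated livers. At an unadjusted p under 0.05 there were 2 enzymes in untreated livers (Acacb and Scd1), where 11.7% of all tested genes were. In DSS-treated livers there were 0 of the 6, where 14.3% of all tested genes were. DESeq2 called 0 of the 6 in both. All 6 enzymes were above 0 in untreated livers, with a median of 0.32, where 49.8% of all tested genes were below 0. In DSS-treated livers 5 of the 6 enzymes were above 0, with a median of 0.196, where 50.3% of all tested genes were below 0. Thrsp was 1.77-fold higher in the untreated labelled knockout (log2 0.83, SE 0.30), with overlap, and its value after DSS was log2 0.78 (SE 0.30). Both are given without a test, because the references are the wild-type livers whose DSS response chose the gene. The value after DSS ran from 0.59 to 1.85 over 14 alternative analyses. Acacb (log2 1.10, SE 0.43, edgeR adjusted p = 0.359) and Scd1 (log2 1.10, SE 0.44, edgeR adjusted p = 0.356) were also higher in the untreated labelled knockout, Acacb without overlap. Elovl6 had the untreated value closest to 0, at 0.04 (SE 0.31). These comparisons share their livers with those of DSS, and after DSS the 2 genotypes differed also in sex-linked transcripts.

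Genes that supply carbon and NADPH to the pathway were examined as a list of 14, of which 13 were tested. In wild type 0 of the 13 were called by edgeR (2 at an unadjusted p under 0.05), and the median was -0.18. Over all tested genes 14.5% had an unadjusted p under 0.05 in wild type and 24.1% in the labelled knockout, the shares against which such counts are read here. Pklr, the liver pyruvate kinase, was at -1.04 (SE 0.31, edgeR adjusted p = 0.139), without overlap. Among the labelled knockout livers 4 of the 13 were called lower and 0 higher, with a median of -0.36, where 2.46% of all tested genes were called lower; 8 had an unadjusted p under 0.05. Pklr measured 606, 399 and 234 CPM untreated and 87.2, 153 and 134 CPM after DSS, and fell by 1.73 on the log2 scale (SE 0.32, edgeR adjusted p = 0.00894). Acss2, which makes acetyl-CoA from acetate, fell by 1.32 (SE 0.35, edgeR adjusted p = 0.0424), and Khk, the ketohexokinase that starts fructose breakdown, by 0.99 (SE 0.21, edgeR adjusted p = 0.0172). Khk and Acss2 were called in 9 and 6 of 14 alternative analyses, and Pklr in 13.

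Of 15 genes of lipogenic transcription control 10 were tested, and Srebf1, Nr1h3, Usf1, Insig2 and Mbtps2 were not analysed here. In the labelled knockout 6 of the 10 had an unadjusted p under 0.05, where 24.1% of all tested genes did. By edgeR 1 of the 10 was called lower and 0 higher, where 2.46% and 4.57% of all tested genes were. This was Mlxipl, which encodes ChREBP, with 156, 147 and 189.5 CPM untreated and 74.7, 63.6 and 76.9 CPM after DSS (log2 fold change -1.19, SE 0.27, edgeR adjusted p = 0.0224, past the threshold in 7 of 14 alternatives). In wild type Mlxipl measured 113, 156 and 121 CPM untreated and 98.7, 49.9 and 132 CPM after DSS (-0.47, adjusted p = 0.455). No gene of the list was called there (1 at an unadjusted p under 0.05), and the values farthest from 0 were those of the coactivator Ppargc1b (-0.74, SE 0.32) and of Insig1, which retains SREBP in the endoplasmic reticulum (-0.56, SE 0.29).

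Regulators of the enzymes gave 1 call among 9 tested genes, lower in the labelled knockout, where 2.46% of all tested genes were called lower. Prkaa2, a catalytic subunit of AMP-activated protein kinase, which phosphorylates and inhibits the carboxylases, fell in the labelled knockout from 239, 195 and 176 CPM to 94.6, 98.8 and 109 CPM (log2 fold change -1.01, SE 0.16, edgeR adjusted p = 0.00504). In wild type it was at -0.54 (SE 0.16, edgeR adjusted p = 0.144), without overlap. Mid1ip1, the paralog of Thrsp that activates acetyl-CoA carboxylase, did not pass the test in either genotype, with -0.67 (SE 0.44, edgeR adjusted p = 0.533) in wild type and -0.15 (SE 0.44, edgeR adjusted p = 0.869) in the labelled knockout. Its livers measured 58.9, 77.1 and 34.2 CPM against 49.8, 15.8 and 41.6 CPM in wild type, and the transcripts of Thrsp and Mid1ip1 share 0 words of 31 bases.

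Genes of triglyceride assembly and storage, the next step for the fatty acids, gave 1 call among the 9 tested. The call was in the labelled knockout, where 2.46% of all tested genes were called lower. There 5 of the 9 had an unadjusted p under 0.05, against 24.1% over all tested genes. Dgat1, which adds the last acyl chain, fell by 0.48 on the log2 scale in the labelled knockout (SE 0.12, edgeR adjusted p = 0.0368, past the threshold in 5 of 14 alternatives). The median of the list was -0.39 there and -0.05 in wild type, where 0 were called (0 at an unadjusted p under 0.05) and Gpam (-0.32) and Lpin1 (0.29) lay farthest from 0.

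Cholesterol synthesis, the other lipid pathway under SREBP control, stood on the opposite side. Of its 14 tested genes 11 had a positive value in wild type and 10 in the labelled knockout, with medians of 0.65 and 0.49. Sqle, the squalene epoxidase, measured 118, 147 and 104 CPM untreated and 231, 285 and 210 CPM after DSS in wild type, and 99.0, 109 and 117 CPM against 158, 219 and 262 CPM in the labelled knockout. It rose by 0.98 in each genotype (SE 0.20, edgeR adjusted p = 0.0465 and 0.0145), and the groups did not overlap. Cyp51, the lanosterol demethylase, was the other call in wild type (0.98, SE 0.20, edgeR adjusted p = 0.049), where 0.453% of all tested genes were called higher. Both wild-type calls are close to the threshold and were past it in 5 and 6 of 14 alternatives. There were 4 calls in the labelled knockout, all higher, where 4.57% of all tested genes were called higher. These were Idi1 (1.505, edgeR adjusted p = 0.00838), Sqle, Cyp51 (0.99, adjusted p = 0.0146) and Fdft1 (0.83, adjusted p = 0.0471). In that order they were past the threshold in 13, 11, 11 and 6 of 14 alternatives. Idi1, the isopentenyl diphosphate isomerase, measured 117, 191 and 125 CPM untreated and 427, 349 and 453 CPM after DSS there. Hmgcs1 and Fdps were not analysed here.

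**Figure D4:**
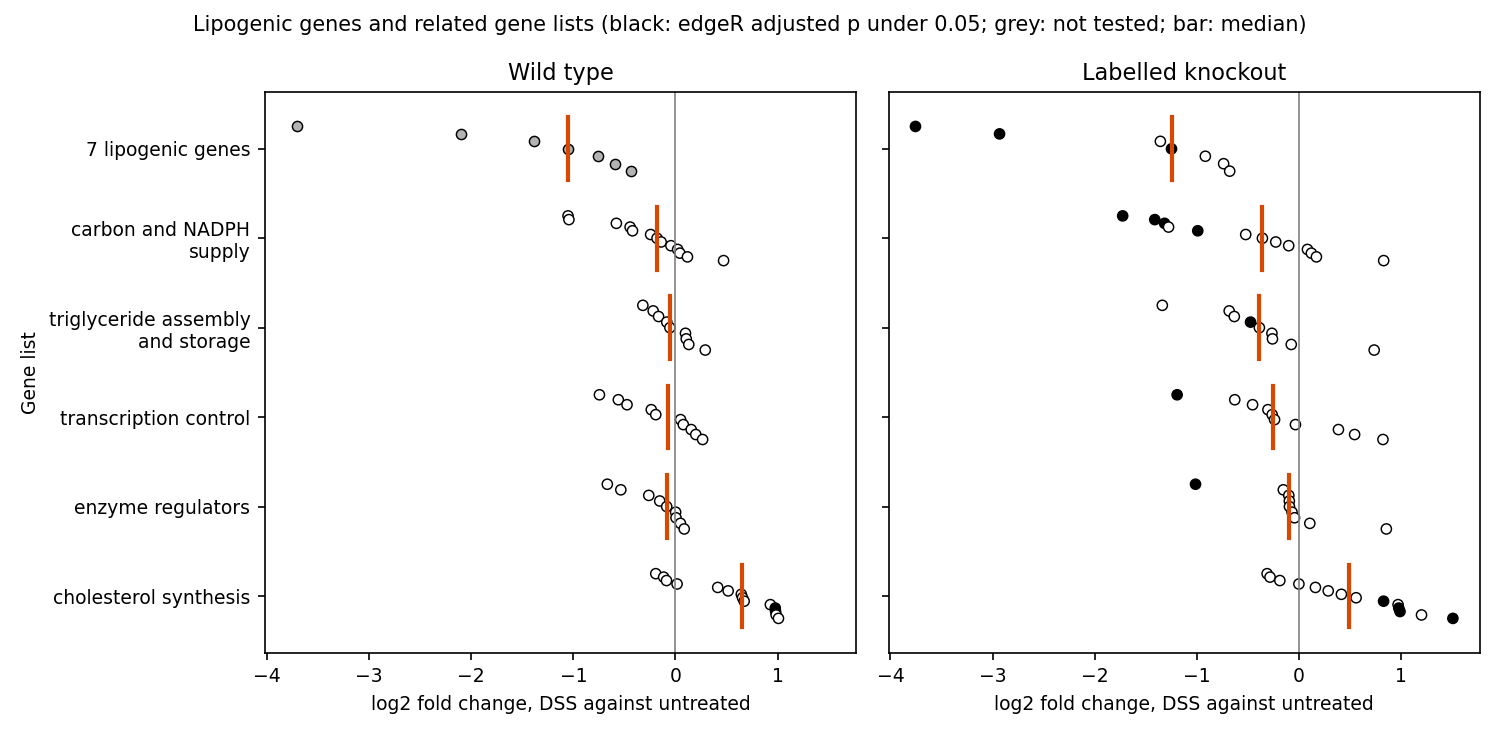
Log2 fold change with DSS of the 7 lipogenic genes and of 5 related lists, 1 point per tested gene, in wild type (left) and labelled knockout (right). Orange bars are medians, black points passed an edgeR adjusted p of 0.05, and open points did not. Grey points, titled as not tested, are the 7 genes in wild type. Their calls are left out because the genes were chosen with that contrast known. The 7 lipogenic genes have medians of -1.05 and -1.25 and the cholesterol genes of 0.65 and 0.49.

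Thrsp is also a target of thyroid hormone, and 6 genes of that response were tested. Dio1, the deiodinase that is a sensitive readout of thyroid hormone in liver, was the 1 call: in the labelled knockout it rose from 2.05, 3.68 and 1.24 CPM to 19.97, 14.9 and 38.6 CPM (log2 fold change 3.40, SE 0.88, edgeR adjusted p = 0.0492, past the threshold in 6 of 14 alternatives). In the labelled knockout 4.57% of all tested genes were called higher. The list did not move one way there: 4 of its 6 genes were negative, the median was -0.11, and Me1, the malic enzyme that hormone also induces, was at -1.28 (SE 0.40, edgeR adjusted p = 0.0788). At an unadjusted p under 0.05 there were 3, namely Dio1, Me1 and Thrb (-0.31, SE 0.14). In wild type 0 were called (0 at an unadjusted p under 0.05), and Dio1 (0.83, SE 0.82) and Hr (-0.58, SE 0.49) lay farthest from 0. Thrb, the main hepatic receptor, was not called in either. Fasting lowers lipogenic transcripts, and 9 of 12 genes of the fasting response were tested. By edgeR 0 were called in wild type (1 at an unadjusted p under 0.05) and 0 in the labelled knockout (4 at an unadjusted p under 0.05), against the 14.5% and 24.1% over all tested genes. In wild type Igfbp1 was at 2.02 (SE 0.49, edgeR adjusted p = 0.0896) and Cyp4a14 at -1.497 (SE 1.81). For the labelled knockout, Fgf21 was at 2.58 (SE 0.86, edgeR adjusted p = 0.0923) and Angptl4 at -1.501 (SE 0.54, edgeR adjusted p = 0.123). The level of Fgf21 was low there, with 0.34 to 0.57 CPM untreated and 0.73 to 5.76 CPM after DSS. Food intake was not part of the data.

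Other features moved beside the lipogenic genes. Of 14 clock genes 7 were called lower and 0 higher after DSS in the labelled knockout (2.46% and 4.57% of all tested genes), led by Hlf (-1.61, edgeR adjusted p = 0.00174), Tef (-2.86, adjusted p = 0.00623), Per2 (-2.80, adjusted p = 0.00764), Cry2 (-0.91, adjusted p = 0.017), Per3 (-3.78, adjusted p = 0.0213) and Nr1d2 (-1.54, adjusted p = 0.0266). Wild type had 0 calls in this list (5 at an unadjusted p under 0.05). Nr1d1, a nuclear receptor of the clock that also represses lipogenic genes, differed between genotypes instead: it measured 71.5, 108 and 97.6 CPM in untreated wild type and 4.99, 8.61 and 7.45 CPM in the untreated labelled knockout (log2 -3.72, edgeR adjusted p = 0.000362), and was lower after DSS as well (-4.08, adjusted p = 0.00016). Of 7 Kupffer cell and macrophage markers 6 were called higher after DSS in the labelled knockout, where 4.57% of all tested genes were, and their sum went from between 286 and 317 CPM to between 579 and 936 CPM, with 0 markers at 0. In wild type the sum ran from 238 to 498 CPM untreated and from 384 to 849 CPM after DSS. There 0 of the 7 markers were called, 6 of 7 had a positive value (median 0.62), and 5 had an unadjusted p under 0.05, against 14.5% over all tested genes. Lymphocyte markers, at a summed 2.14 to 8.83 CPM, were lower in wild type for 5 of 5 (median -1.18, 4 at an unadjusted p under 0.05) and higher in the labelled knockout for 5 of 5 (median 1.24, 3 at an unadjusted p under 0.05), with 0 called in either. Of 6 stellate cell and fibroblast markers 1, Des, was called higher in the labelled knockout (1.98, SE 0.42, edgeR adjusted p = 0.0179), where 4.57% of all tested genes were. There 5 of the 6 were positive (median 0.64, 3 at an unadjusted p under 0.05). Reln was the 1 negative marker, at 149.9 to 176.5 CPM untreated and 115 to 137.1 CPM after DSS. In wild type 5 of the 6 were negative (median -0.43, 2 at an unadjusted p under 0.05), with 0 called. Neutrophil markers summed to at most 3.35 CPM untreated and to as much as 96.2 CPM in a wild-type DSS liver and 20.5 CPM in a labelled knockout one. Of the 6 tested hepatocyte markers 0 were called in either genotype (1 at an unadjusted p under 0.05 in each). In whole tissue fewer cells of a type and less RNA per cell cannot be told apart, and with the Xist covariate 0 DSS calls in the pathway and clock lists passed the edgeR test, in a fit that called 4 of all 17652 genes in the labelled knockout. Fold changes there remained large for several, at -2.37 (SE 0.74) for Tef, -1.56 (SE 0.38) for Hlf, 1.60 (SE 0.52) for Idi1 and -0.81 (SE 0.29) for Prkaa2. The part of time of day, sex and cell composition in the lipogenic values was not tested.

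The genes whose pattern over the 12 livers was most like the mean of the 7 (each scaled to mean 0 and SD 1) were Eno1, Gm5506, Gm13699, Fitm2 and Oxsr1, with Pearson r of 0.943, 0.936, 0.934, 0.930 and 0.929 among 11000 ranked genes. Eno1 encodes the glycolytic enzyme enolase. Transcripts of Gm5506 and the pseudogene Gm13699 share 82.3% and 86.6% of their 31-base words with Eno1, so these 3 may hold the same reads. Fitm2 helps form lipid droplets. Most like Thrsp alone were Fam195a (0.941), Nkd1 (0.927), Mtfp1 (0.924), Gnmt (0.921) and Tmem120b (0.920). Nkd1 is an inhibitor of Wnt signalling, and Mtfp1 a mitochondrial fission protein. Their DSS responses are not tested here, since these genes were picked for a pattern that holds the DSS fall. The likeness is a description, and the short lists changed in most analyses that left out a liver.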

How the data were processed

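The authors trimmed paired-end reads of rRNA-depleted RNA with fastp, aligned them to mm9 with HISAT2 and counted genes with StringTie. The deposited values are whole-number estimated counts before normalization, and the annotation used for counting is not given in the sources used here. GENCODE vM1 named 28677 of 51609 rows, and 23458 rows were 0 in every library. In edgeR 4.0.16 (R 4.3.3) genes were filtered with filterByExpr and TMM factors (0.758 to 1.13) were computed. A single model of all 4 groups was fitted with the robust quasi-likelihood method, and p-values were adjusted over 17652 genes (Benjamini-Hochberg, threshold 0.05). Standard errors were the log2 fold change divided by the root of F. Exact permutation tests and likeness used log2(CPM + 0.5). Alternatives were DESeq2 1.42.0, limma-voom 3.58.1, other scaling, filters, groups, a replicate block, an Xist covariate (Xist above 100 CPM) and leaving out each library. The fit was tested on simulated data. The 7 genes and the lists were chosen with earlier results of these data known. Named from each list were all called genes (at most 6), or, with 0 called, at most 2 farthest from 0; 1 such gene is not reported here. No pair of libraries of 1 group agreed within sampling noise. The labels do not state separate litters or batches. No protein sequences were used here.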

Additional observations from a re-analysis of the deposited data

Results flagged for a closer look

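Among the listed genes other than the 7, the Y-linked Ddx3y, Uty, Kdm5d and Eif2s3y differed between the genotypes in their DSS response by the edgeR interaction test (edgeR adjusted p = 0.00475, 0.00378, 0.00776 and 0.015), with at most 7 counts per library in the DSS-treated labelled knockout livers.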

How the results depend on the processing

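The direction of all 7 genes with DSS was kept in all 98 refitted values in wild type and in 97 of 98 in the labelled knockout; the exception was Fasn with the Xist covariate, at 0.10. For wild type, where the genes were chosen and nothing is read from calls, the number of the 7 genes called was 3 with DESeq2 and 2 with at least 10 counts in every library, and 1 to 2 when a liver was left out, with medians between -1.52 (without DSS liver 3, which also gave the 2 calls) and -0.59 (without untreated liver 2). In the labelled knockout DESeq2 and a fit on the groups compared each called 5, with 1032 of 17652 and 655 of 16585 genes called lower against 434. The Xist covariate called 0, with a median of -0.54, and its median was 0.89 for the genotypes after DSS and 0.69 for the difference of the responses. That term is estimated from wild-type untreated liver 3, which had Ddx3y at 14.3 CPM beside its high Xist. Leaving out a labelled knockout liver gave 2 to 3 calls, the change being in Elovl6. Replicate numbers did not pair the livers (18 same-numbered pairs, r between -0.07 and 0.21), and the replicate block gave 1 call in wild type and 2 in the labelled knockout, where Elovl6 had an edgeR adjusted p of 0.0609. Without the low-count filter Elovl6 had an adjusted p of 0.0511. Between genotypes 0 of the 6 enzymes were called in any alternative. Of the 5 genes most like the set, 2 to 5 were among the 5 again when a liver was left out, and of those most like Thrsp 0 to 3. The cause of these shifts was not tested.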
